A study of Mus musculus with 27 samples.

Results

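The collagen genes of the mouse were followed in Zfp512b knockout cells through 4 stages of embryonic stem cell culture. Members were taken by symbol alone, as every gene whose name consists of Col, the number of the collagen type, the letter a and the number of the chain. This gave 44 of the 25209 genes listed at each stage, which were split by textbook function into 11 fibrillar, 9 basement membrane and 24 other collagens. V6.5 mouse embryonic stem cells were sequenced in 27 libraries as WT, KO4 or KO8. KO4 and KO8 are each 1 clone in which transcription terminators were inserted after exon 3 of Zfp512b, followed by selection, whereas the WT cells had been neither edited nor selected. Naive cells (3 libraries per group, Day 0) were grown in 2i medium (blocking the kinases MEK and GSK3) plus LIF, and primed cells (2 per group, Day 2) in serum differentiation medium with LIF. NPC samples (neural progenitor cells, 2 per group, Day 10) came from embryoid bodies treated with retinoic acid, and CM samples (cardiomyocytes, 2 per group, Day 7.5) from embryoid bodies treated with vitamin C.

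Collagens are secreted proteins built from 3 chains wound into a helix. Fibrillar collagens such as types I, II, III and V assemble into the fibrils of connective tissue and cartilage, and type IV collagen forms the sheet-like network of the basement membrane on which epithelia, endothelia and the early embryonic germ layers rest. The remaining types include the beaded filaments of type VI, the network-forming type VIII, the fibril-associated types IX, XII, XIV, XVI, XIX, XX and XXII, and the types XIII, XVII, XXIII and XXV, which span the plasma membrane. In early development mesoderm and its connective tissue derivatives are the main source of fibrillar collagens, and extraembryonic endoderm secretes much type IV collagen. The secreted chains depend on enzymes that hydroxylate, trim and crosslink them, and vitamin C, which was present in the CM protocol, is a cofactor of the hydroxylases.

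The deposited values are base means, the average normalised read number over the libraries of 1 clone and WT. Because a base mean is a weighted sum of whole reads, the reads of each library were worked out from it for genes of low or moderate level, and a value is given below as normalised reads (reads of a library divided by its size factor). Libraries are named by group and by rising size factor, so WT library 1 is not the replicate of that number in the labels. Approximate depth was 34.2 to 39.6 M reads (megareads) per naive library and 15.1 to 19.4 M at the other stages. Reads were recovered for 32 members in naive cells, 40 in primed cells, 32 in NPC and 30 in CM samples, and for most of the others the base mean was too large for a unique solution. Zfp512b itself was measured first. In primed cells it had 977 and 929 normalised reads in WT, 219 and 191 in KO4 and 154 and 184 in KO8, and in CM samples 1060.1 and 1118 in WT, 209 and 184 in KO4 and 173 and 155 in KO8. The knockout libraries lay below the WT libraries in both clones (log2 difference between −2.73 and −2.22, adjusted p at most 2.99e-06, limma). In naive cells and NPC samples only its base means were obtained (697 and 675, and 1325.3 and 1354). The 2 NPC libraries of KO8 stood apart from the other pairs: the median absolute log2 difference between them was 0.197 over the genes compared, against 0.116 to 0.163 for the other pairs of the stages with 2 libraries. Genes on chromosome 8, which holds Col4a1 and Col4a2, had median log2 differences from WT of 0.40 to 0.58 over both clones and all stages, against −0.06 to 0.06 for genes elsewhere. The share of them called higher ran from 12.2% (KO8, NPC) to 57.1% (KO4, NPC), and the share called lower reached 16.1% (KO4, CM). The medians were not tested.

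The leading basement membrane collagen was the same in naive and primed cells, and another one led in NPC and CM samples. Levels were compared between genes as base mean per kilobase of exon, averaged over both clones' tables of a stage, and only within a stage. In naive cells the highest member of each class was Col5a3 among the fibrillar collagens (49.3), Col18a1 among the basement membrane collagens (621) and Col9a2 among the others (133). In primed cells these were Col2a1 (17.5), Col18a1 (1675) and Col9a2 (39.8). Col18a1 encodes the core protein of a basement membrane proteoglycan from which endostatin is cut, and its base means were 4648 and 4077 in the KO4 and KO8 tables of naive cells and 12032 and 11485 in those of primed cells. In NPC samples the highest were Col3a1 (1116), Col4a1 (1359.9) and Col6a1 (288), and in CM samples Col1a1 (1952), Col4a1 (3044) and Col26a1 (203). The first fibrillar rank in naive cells and CM samples depended on the averaging. In the KO4 table alone Col5a1 led in naive cells (base mean 403 over 8490 bases of exon, Col5a3 310 over 6809). In that of CM samples Col2a1 led (6748 over 6030 bases, Col1a1 6750 over 6563). No read at all was found for Col8a1 and Col28a1 in naive cells, for Col4a4, Col8a1 and Col19a1 in primed cells and for Col28a1 in NPC samples.

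Some promoters are shown here because their genes recur below. They are windows of 300 bases around the annotated start (250 before, 50 after) from RefSeq on build GRCm38.p6. Col4a1 (chr8:11312777-11313076, minus strand) and Col4a2 (chr8:11312555-11312854, plus strand) encode the chains that form the common type IV molecule and are transcribed away from each other, so that their windows share 78 bases. Col1a2 (chr6:4505368-4505667, plus strand) and Col3a1 (chr1:45311288-45311587, plus strand) encode fibrillar chains that lay far higher in CM samples of KO8 than of KO4. Capitals mark the CCAAT box on either strand (CCAAT or ATTGG).
Col4a1: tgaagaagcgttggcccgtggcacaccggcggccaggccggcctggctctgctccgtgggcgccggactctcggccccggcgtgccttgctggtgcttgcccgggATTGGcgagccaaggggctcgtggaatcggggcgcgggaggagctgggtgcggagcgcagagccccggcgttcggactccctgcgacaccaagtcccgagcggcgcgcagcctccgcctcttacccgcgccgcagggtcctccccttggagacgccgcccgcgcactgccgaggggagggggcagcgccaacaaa
Col4a2: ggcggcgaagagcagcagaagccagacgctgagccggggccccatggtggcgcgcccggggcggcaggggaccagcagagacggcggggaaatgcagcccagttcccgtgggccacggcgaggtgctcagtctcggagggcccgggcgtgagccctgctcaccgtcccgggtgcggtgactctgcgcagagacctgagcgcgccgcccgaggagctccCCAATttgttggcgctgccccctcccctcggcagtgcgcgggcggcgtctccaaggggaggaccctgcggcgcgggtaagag
Col1a2: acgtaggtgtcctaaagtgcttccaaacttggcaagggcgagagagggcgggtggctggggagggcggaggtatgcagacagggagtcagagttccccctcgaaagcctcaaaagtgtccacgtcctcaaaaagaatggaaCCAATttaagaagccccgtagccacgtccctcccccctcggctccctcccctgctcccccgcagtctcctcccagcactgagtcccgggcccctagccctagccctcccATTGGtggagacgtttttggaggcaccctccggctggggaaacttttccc
Col3a1: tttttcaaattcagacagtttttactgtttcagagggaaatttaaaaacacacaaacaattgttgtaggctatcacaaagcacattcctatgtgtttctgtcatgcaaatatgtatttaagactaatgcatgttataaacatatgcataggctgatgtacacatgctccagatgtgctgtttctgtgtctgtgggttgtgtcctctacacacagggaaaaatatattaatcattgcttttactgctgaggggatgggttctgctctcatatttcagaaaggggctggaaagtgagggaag
The letters CCAAT occurred once in each type IV window and not in that of Col3a1, and there were 2 copies in that of Col1a2. Over all members with a promoter in the table, 13 of 38 windows held CCAAT on either strand (34.2%), against 37.4% of all 32851 windows. The letters GGGCGG (a GC box, either strand) were in 23 of 38 (60.5%), against 35.7% of all windows. The TATA box (the letters TATAAA, searched only on the strand as printed) was found in 5 of 38 windows (13.2%), against 8.32% of all. These shares are therefore not comparable with those of the other boxes, which were searched on either strand. Such a match describes the letters only.

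In CM samples most of the collagens that could be tested were called in KO4, largely as lower than in WT, and the clones differed from each other. In KO4 14 of 22 members tested were lower than in WT and 3 were higher, among them 13 lower members of the 16 other collagens tested. In KO8 6 of 21 were higher and 4 lower. The background was large as well: of all genes tested, 28.7% were called lower and 23.7% higher in KO4, and 12.5% lower and 12.0% higher in KO8 (limma-voom on the recovered reads, Benjamini-Hochberg adjustment over all genes tested, adjusted p under 0.05). The median log2 difference over the members was −0.99 in KO4 and 0.14 in KO8, against −0.04 and −0.01 over all genes tested. Between the clones, 13 of 22 members were lower in KO4 than in KO8 and 4 were higher, where 29.3% and 24.0% of all genes tested were called in these directions. The WT libraries are shared by the comparisons of the 2 clones. Nothing in the labels says that libraries of a group came from separate cultures, so p-values measure the spread between these libraries, which may be technical.

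**Figure D1:**
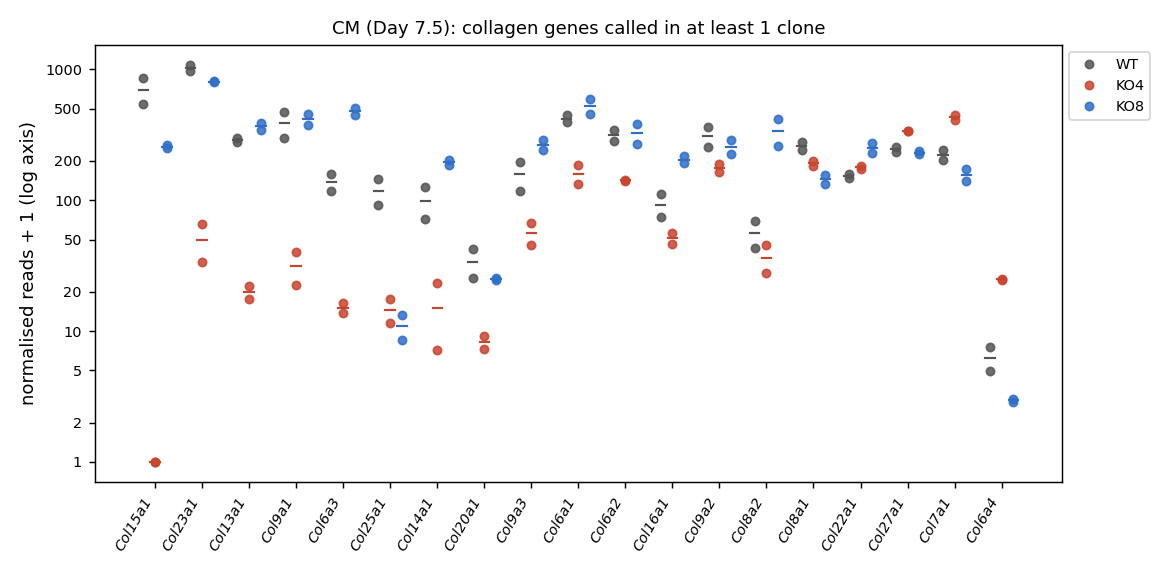
Normalised reads plus 1 (log axis) in CM samples of the collagen genes called in at least 1 clone, with 1 point per library (2 per group) and a bar at the mean of each group. The KO4 points of Col15a1 stand at 0 reads, and those of Col13a1, Col23a1, Col9a1 and Col6a3 lie far below the WT and KO8 points.

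Of the 11 fibrillar collagens only the less abundant Col5a3, Col11a2, Col24a1 and Col27a1 could be tested in CM samples. Col27a1 was higher in KO4 than in WT, and none was called in KO8 by limma-voom, by limma-trend or at an unadjusted p under 0.05. Col5a3, a type V chain, had 19.7 and 24.2 normalised reads in WT, 29.4 and 29.8 in KO4 and 11.3 and 11.3 in KO8, and differed between the clones only (log2 difference 1.36 ± 0.46, adjusted p = 0.0254).

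Among the basement membrane collagens with recovered reads in CM samples, Col15a1 changed most. It encodes a chondroitin sulphate proteoglycan of basement membranes, known from muscle and capillaries, and had 848 and 541 normalised reads in WT, 0 and 0 in KO4 and 248 and 262 in KO8. The groups did not overlap. On the reads as recovered, KO4 was called lower than WT and than KO8 (adjusted p = 4.84e-05 and 5.71e-05, limma). With 0 reads in both KO4 libraries, a floor of 3 reads over the group was set for the folds only. At this floor KO4 would be 446-fold lower than WT and 164-fold lower than KO8. The floor takes reads as independent, which they are not, so these folds are too large to serve as lower limits. KO8 was lower than WT by a log2 difference of −1.40 ± 0.22 (SE, adjusted p = 0.00112). Col7a1, the anchoring fibril collagen of stratified epithelia, went the other way in KO4. It had 241 and 201 normalised reads in WT, 410.1 and 443 in KO4 and 172 and 138 in KO8, with both KO4 libraries above all others (log2 difference 0.95 ± 0.15, adjusted p = 0.000419 for KO4, −0.52 ± 0.19, adjusted p = 0.0674 for KO8).

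Of the 4 collagens that span the plasma membrane, Col13a1, Col23a1 and Col25a1 fell in KO4 CM samples, and Col17a1 had too few reads for a test (1.97 to 8.21 normalised reads over all libraries). Col23a1 had 1085 and 962 normalised reads in WT, 64.1 and 32.8 in KO4 and 799.9 and 808 in KO8. Both KO4 libraries were far below every other library, at a log2 difference of −4.46 ± 0.31 (adjusted p = 3.61e-06), while KO8 was lower than WT by only −0.34 ± 0.09 (adjusted p = 0.0210). That KO8 call did not pass without KO8 library 1 (adjusted p = 0.128) or KO8 library 2 (0.141). Col13a1, whose protein sits at the neuromuscular junction and other adhesion sites, was chosen after its values were seen. It had 295 and 276 normalised reads in WT, 21.0 and 16.4 in KO4 and 342 and 387 in KO8 (log2 difference −3.90 ± 0.35, adjusted p = 1.47e-05 in KO4, and 0.36 ± 0.13, adjusted p = 0.0773 in KO8). Col25a1, which was first known from amyloid plaques and acts in motor innervation of muscle, was low in both clones. Its values were 143 and 91.4 in WT, 10.5 and 16.4 in KO4 and 12.3 and 7.51 in KO8, so that no knockout library reached the WT range. The log2 differences were −3.06 ± 0.49 in KO4 (adjusted p = 0.000572) and −3.51 ± 0.53 in KO8 (adjusted p = 0.000914), and the difference between the clones did not pass (0.45 ± 0.68, adjusted p = 0.601).

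Type VI collagen forms beaded microfilaments around muscle fibres and mesenchymal cells, from chains encoded by Col6a1, Col6a2 and Col6a3. Col6a3 moved in opposite directions in the clones. It had 116 and 158 normalised reads in WT, 12.6 and 15.4 in KO4 and 443 and 506 in KO8, 3 separate ranges. The log2 difference from WT was −3.24 ± 0.43 in KO4 (adjusted p = 0.000180) and 1.80 ± 0.18 in KO8 (adjusted p = 8.36e-05), and KO4 lay below KO8 by 5.04 ± 0.43 on the log2 scale (adjusted p = 1.25e-06). Col6a1 was at 443 and 392 in WT, 185 and 131 in KO4 and 456 and 595 in KO8. Col6a2 was at 345 and 282 in WT, 141 and 139.6 in KO4 and 265 and 383 in KO8. Both were lower in KO4 than in WT (−1.42 ± 0.19, adjusted p = 0.000158, and −1.15 ± 0.18, adjusted p = 0.000556), and neither passed in KO8 (0.33 ± 0.14 and 0.05 ± 0.18, adjusted p = 0.122 and 0.888). Col6a4, a type VI chain related to that of Col6a3, was scarce in WT and KO8 (1.88 to 6.53 normalised reads) and higher in KO4 (23.6 and 24.2, log2 difference 2.13 ± 0.57, adjusted p = 0.0108), a call that did not pass without WT library 1 (adjusted p = 0.0670).

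Several fibril-associated collagens, which coat the surface of fibrils, also had opposite signs in the clones. Col14a1 had 70.9 and 125 normalised reads in WT, 22.1 and 6.16 in KO4 and 202 and 185 in KO8. The log2 differences were −2.96 ± 0.61 (adjusted p = 0.00251) and 1.02 ± 0.25 (adjusted p = 0.0126), and the 3 groups did not overlap. Col16a1 had 110.3 and 72.7 in WT, 54.7 and 45.2 in KO4 and 189 and 216 in KO8. KO8 was above WT (1.18 ± 0.23, adjusted p = 0.00389), whereas the lower value of KO4 was close to the threshold (−0.84 ± 0.32, adjusted p = 0.0496) and missed it without KO4 library 1 (0.0906), KO4 library 2 (0.204) or WT library 1 (0.175), and with other size factors or read filters. Col9a3, a chain of the cartilage collagen IX, had 117 and 196 in WT, 44.2 and 65.7 in KO4 and 242 and 287 in KO8. It was lower in KO4 (−1.49 ± 0.35, adjusted p = 0.00537) and higher in KO8 (0.79 ± 0.22, adjusted p = 0.0252), the latter not without KO8 library 2 (adjusted p = 0.133) or WT library 1 (0.0657). Its partner chain Col9a1, chosen after its values were seen, had 469 and 299 in WT, 38.9 and 21.5 in KO4 and 457 and 372 in KO8 (log2 difference −3.67 ± 0.47, adjusted p = 0.000147 in KO4, and 0.14 ± 0.19, adjusted p = 0.65 in KO8).

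The type VIII chains, which build the hexagonal lattice of vessel walls and the corneal endothelium, differed between themselves. Col8a1 had 275 and 242 normalised reads in WT, 197 and 183 in KO4 and 132 and 155 in KO8, a step down from group to group without overlap. KO8 was lower by −0.84 ± 0.17 (adjusted p = 0.00570) and KO4 by −0.44 ± 0.16 (adjusted p = 0.0426). The KO4 call did not pass without KO4 library 1 (0.131), KO4 library 2 (0.234) or WT library 1 (0.104), nor under other size factors, and the KO8 call not without KO8 library 1 (0.0568). Col8a2, chosen after its values were seen, had 68.0 and 42.0 in WT, 44.2 and 26.7 in KO4 and 256 and 414 in KO8. Both KO8 libraries stood well above the rest (2.62 ± 0.36, adjusted p = 0.000539), while WT and KO4 overlapped (−0.62 ± 0.40, adjusted p = 0.213). The remaining calls from WT were Col9a2 (−0.77) and Col20a1 (−2.07) lower in KO4, Col27a1 higher in KO4 (0.46) and Col22a1 higher in KO8 (0.72). Of these, Col9a2 did not pass without KO4 library 1 (0.0587), Col22a1 not without KO8 library 2 (0.155), and Col27a1 not without KO4 library 1 (0.0886), KO4 library 2 (0.103) or WT library 2 (0.0563). Without KO8 library 1 the lower calls in KO8 went from 4 to 2, and without KO8 library 2 the higher calls went from 6 to 4.

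**Figure D2:**
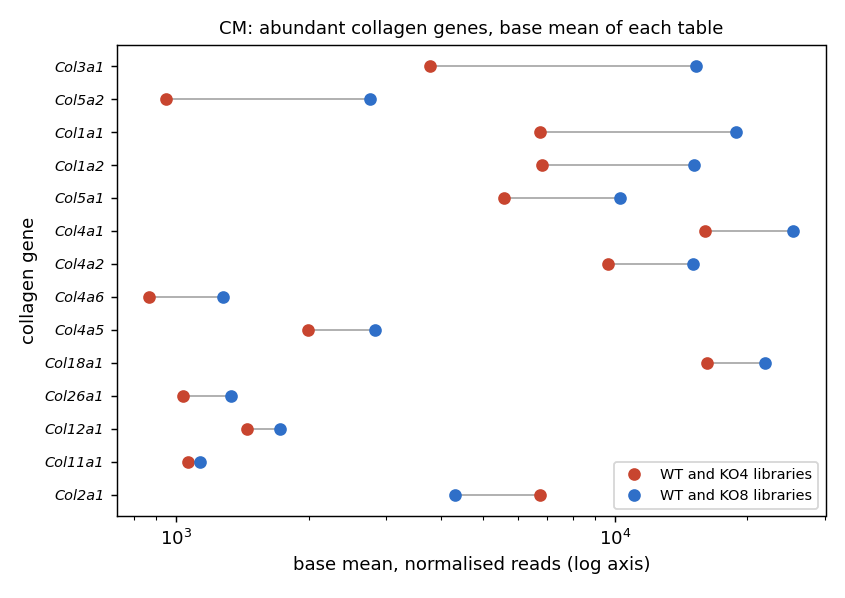
Base means (average normalised reads over the 2 WT and 2 knockout libraries of a table, log axis) of the 14 abundant collagen genes in CM samples, 1 point for the KO4 table and 1 for the KO8 table. The KO8 point is to the right for every gene but Col2a1, and the gap is widest for Col3a1 on this scale. No error can be drawn for a single value.

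The most abundant collagens of CM samples, including the chains of fibrils and of type IV collagen, could not be separated into libraries. Their base means in the 2 tables still limit the levels, because both tables hold the same WT libraries and a read number cannot be below 0. Col3a1, the type III collagen of distensible tissues, had base means of 3786 in the KO4 table and 15242 in the KO8 table. This puts KO8 at least 3.90-fold above KO4 and at least 2.90-fold above WT. Col1a1 had 6750 and 18873, and Col1a2, the other chain of type I collagen, 6826 and 15147, so that KO8 was at least 2.71-fold and 2.15-fold above KO4 and at least 1.71-fold and 1.15-fold above WT. Col5a2, a chain of the type V collagen that nucleates type I fibrils, had 949 and 2755, which sets KO8 at least 2.81-fold above KO4 and 1.81-fold above WT. It lies 24.6 kb from Col3a1 on chromosome 1. Col5a1 had 5569 and 10229 (KO8 at least 1.78-fold above KO4). These limits carry no replicate error and no test, and the share of WT in each base mean is unknown.

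In the type IV group, Col4a1 had CM base means of 16057 in the KO4 table and 25453 in the KO8 table, and Col4a2 9626 and 15033, so KO8 lay at least 1.54-fold and 1.51-fold above KO4. Col4a5 and Col4a6, which start 1.31 kb apart on the X chromosome, had limits of 1.38-fold and 1.43-fold, and Col18a1 of 1.31-fold. Whether either clone differed from WT in these chains could not be read from the base means, since each limit for KO8 over WT was under 1. Col2a1, the fibrillar collagen of cartilage and of the early notochord and neuroepithelium, was the exception among the abundant members. Its base means were 6748 and 4311, so KO4 was at least 1.61-fold above KO8. Col26a1, the highest of the other collagens per kilobase, had 1037 and 1333 (KO8 at least 1.25-fold above KO4). For Col12a1 and Col11a1 the limits were 1.15-fold and 1.03-fold.

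Markers of cell types also differed from WT in CM samples, and their part in the results was not tested. Of the cardiomyocyte markers Actn2 had 1398 and 1349 normalised reads in WT, 46.3 and 51.3 in KO4 and 950.4 and 989.6 in KO8, and Nkx2-5 had 1312 and 1100.3, 17.9 and 11.3, and 1322 and 1417. The other 8 of 10 were too abundant to separate. Among mesenchyme and fibroblast markers 7 of 8 tested were lower in KO4, and in KO8 3 were higher and 4 lower. These 8 summed to 2937 to 3097 in WT, 366 to 564 in KO4 and 4769 to 5271 in KO8, where Pdgfra alone had 2472 and 2657. Postn and Pdgfrb could not be separated and are not in the sum. All 5 neural progenitor markers tested were higher in KO4. The 6 with recovered reads, which leave out Nes and Sox2, summed to 7495 to 7587 in KO4, 212 to 232 in WT and 337 to 340.01 in KO8. For KO4, pluripotency markers had 4 higher and 1 lower of 6 tested, primitive endoderm 4 lower of 7, endothelium 1 lower of 1, smooth muscle 2 lower of 2, cartilage 1 lower of 3 and neural crest 3 higher and 1 lower of 4. For KO8 the calls were 5 lower of 6, 2 higher and 2 lower of 7, 1 lower of 1, 1 lower of 2, 1 higher and 1 lower of 4, and 2 higher and 1 lower of 3. Of all genes tested in CM samples, 28.7% were called lower and 23.7% higher in KO4, and 12.5% and 12.0% in KO8. Not separated into libraries were 5 of 6 endothelial, 5 of 12 endoderm, 2 of 8 pluripotency and 2 of 4 smooth muscle markers. The same held for 1 of 5 cartilage and 1 of 5 neural crest markers. In these bulk samples fewer cells of a type cannot be told apart from less RNA per cell.

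The enzymes that process and crosslink collagen were described from a list of 30 genes. In CM samples 15 could be tested, of which 8 were lower and 4 higher in KO4, and 8 higher and 2 lower in KO8. Of all genes tested, 28.7% were called lower and 23.7% higher in KO4, and 12.0% higher and 12.5% lower in KO8. Adamts2, the protease that removes the amino-terminal propeptide of procollagen, had 147 and 279 normalised reads in WT, 25.2 and 22.6 in KO4 and 1169 and 1458 in KO8. The groups did not overlap (log2 difference −3.07 and 2.68, adjusted p = 0.000831 and 4.5e-05). Pcolce, which enhances removal of the carboxy-terminal propeptide, had 591 and 485 in WT, 158 and 108 in KO4 and 685 and 764 in KO8 (−2.03 and 0.44). Loxl1, a lysyl oxidase that crosslinks fibres, had 609.9 and 652 in WT, 426 and 468 in KO4 and 1532 and 1817 in KO8 (−0.50 and 1.40). The 4 genes of the list that were higher in KO4 were the lysyl oxidases Lox (1.47) and Loxl3 (1.32), Pcolce2 (1.70) and the procollagen protease Adamts14 (0.69). In KO8 Loxl3 was higher (0.76), Adamts14 was lower (−1.33), and Lox (1.01) and Pcolce2 (−0.39) did not pass. A further list of 23 receptors, binding proteins and proteases had 7 of 10 lower in KO4, and 3 higher and 4 lower of 11 in KO8, against the same shares over all genes. The collagen receptors Ddr2 (−5.08), Itga1 (−3.17), Itga2 (−3.92) and Itga11 (−1.50) were lower in KO4, and Ddr2 (−1.03) and Itga11 (−1.75) were also lower in KO8. The receptor Itga10 did not pass in either clone (−0.24 and 0.24). Ddr1 and Mrc2 could not be separated, with Ddr1 base means of 3140 and 3046 (KO4 at least 1.06-fold above KO8). Lair1 and Gp6 had too few reads for a test. Of the small proteoglycans, Lum (2.23), Dcn (1.93) and Fmod (4.94) were higher in KO8. In KO4 Lum (−3.40) and Dcn (−1.20) were lower, and Fmod had too few reads for a test against WT. Bgn was lower in both clones (−1.97 in KO4 and −1.83 in KO8). Lum and Dcn are also among the mesenchyme and fibroblast markers.

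In NPC samples Col6a2 and Col8a2 were lower in both clones and Col14a1 was higher. In KO4 5 of 28 members tested were higher than in WT (Col2a1, Col4a6, Col9a2, Col14a1 and Col19a1) and 5 were lower (Col6a2, Col6a3, Col8a2, Col23a1 and Col26a1), where 9.87% and 7.74% of all genes tested were called. In KO8 1 of 27 was higher and 2 were lower, against 0.958% and 1.13% of all genes. The median over the members was −0.05 in KO4 and −0.41 in KO8, against −0.01 and −0.00 over all genes tested. Of 26 members tested between the clones, 1 differed, where 0.659% of all genes did. The KO8 calls depended on single libraries: without WT library 1 or 2 none of the 3 collagens passed, while without KO8 library 1 there were 6 higher and 6 lower members and without KO8 library 2 5 and 7. Over all genes, 92 higher and 109 lower calls in KO8 became 0 and 0 without either WT library, 813 and 499 without KO8 library 1, and 1443 and 694 without KO8 library 2.

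**Figure D3:**
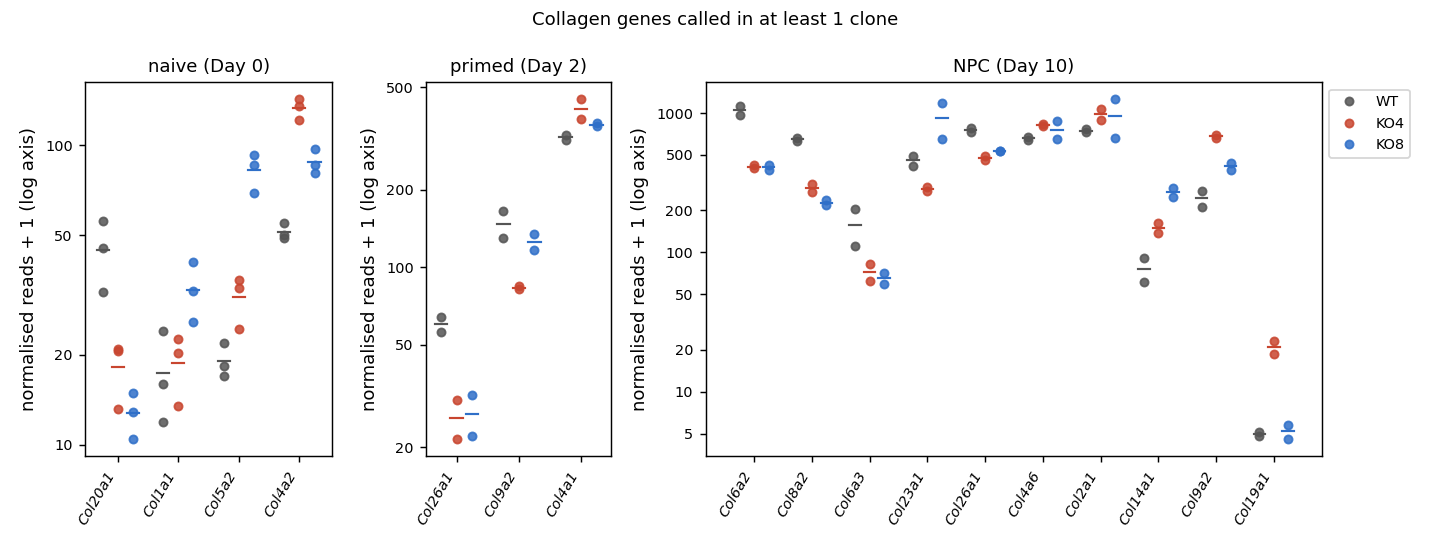
Normalised reads plus 1 (log axis) of the collagen genes called in at least 1 clone in naive cells, primed cells and NPC samples, with 1 point per library and a bar at the mean of each group. Both clones lie below WT for Col6a2 and Col8a2 in NPC samples, Col20a1 in naive cells and Col26a1 in primed cells, and above WT for Col4a2 in naive cells.

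Col6a2 had 969 and 1116 normalised reads in WT NPC samples, 403 and 421 in KO4 and 389 and 426 in KO8. No knockout library came near the WT range, and the log2 differences were −1.34 ± 0.11 (adjusted p = 1.01e-09) and −1.36 ± 0.13 (adjusted p = 0.0144, 0.245 and 0.326 without WT library 1 or 2). Col6a3 had 204 and 109.8 in WT, 61.5 and 81.1 in KO4 and 70.1 and 58.5 in KO8, and passed in KO4 only (−1.05 ± 0.27, adjusted p = 0.00657), not without KO4 library 1 (0.0511) or WT library 1 (0.127). KO8 was at −1.20 ± 0.38 (adjusted p = 0.15), and the difference between the clones was not detectable (0.15 ± 0.41, adjusted p = 0.890). Col6a1, the most abundant of the other collagens per kilobase here, had base means of 1225 and 1309, which allowed no test. Col8a2 had 630.1 and 662 in WT, 270.2 and 309.9 in KO4 and 217 and 235 in KO8. Its log2 differences were −1.15 ± 0.12 (adjusted p = 8.29e-08) and −1.51 ± 0.14 (adjusted p = 0.0144, 0.245 and 0.326 without WT library 1 or 2).

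Col14a1 was higher in both clones in NPC samples, with 60.5 and 90.9 normalised reads in WT, 162 and 136 in KO4 and 287 and 250.2 in KO8. The groups did not overlap. The log2 differences were 0.98 ± 0.24 (adjusted p = 0.00342, and 0.0547 without WT library 1) and 1.83 ± 0.26 (adjusted p = 0.0336, and 0.389 and 0.461 without WT library 1 or 2). Col9a2 had 212 and 275 in WT, 694 and 666 in KO4 and 389 and 437 in KO8. Every knockout library was above the WT range, KO4 passed (1.48 ± 0.13, adjusted p = 5.52e-09), KO8 did not (0.77 ± 0.18, adjusted p = 0.0776), and KO4 exceeded KO8 by 0.72 ± 0.12 (adjusted p = 0.0493, and 0.0556 by limma-trend). The other KO4 calls were smaller or rested on few reads. Col2a1 (0.39, adjusted p = 0.178 without KO4 library 1), Col4a6 (0.32, not without KO4 library 1, 0.137, KO4 library 2, 0.0678, or WT library 2, 0.0795) and Col19a1 (2.19, 3.79 and 4.17 normalised reads in WT, 0.0686 and 0.0871 without WT library 1 or 2) were higher, and Col23a1 (−0.67) and Col26a1 (−0.66) lower. Col23a1 had 651 and 1184 normalised reads in the KO8 libraries and Col2a1 1253 and 657, so the libraries differed in opposite directions for these genes.

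The most abundant collagens of NPC samples were close in both tables. Col3a1 had base means of 9779 and 8957, Col4a1 9518 and 9026, Col4a2 5528 and 5431 and Col18a1 8271 and 8320.5. The limits on the ratio between the clones ran from 1.03 to 1.29 over 11 genes, the last for Col1a2, with KO8 above KO4. Such limits do not show that the clones were alike, since the WT libraries fill an unknown part of each base mean. Neural progenitor markers were higher in 6 of 6 tested in KO4, with summed levels of 574 to 700.0 in WT, 1626 to 2069 in KO4 and 1450.0 to 3457 in KO8, where Pax6 had 513 and 286 normalised reads against 179 and 169 in WT (adjusted p = 0.128). None of these 6 was called in KO8 by limma-voom, against 4 by limma-trend and 5 at an unadjusted p under 0.05. Nes and Sox2 could not be separated and are not in these sums. In KO4 the other lists had 1 higher and 2 lower of 5 tested for mesenchyme and fibroblasts, 2 higher and 2 lower of 8 for primitive endoderm, 2 higher and 1 lower of 3 for neural crest, 2 lower of 7 for pluripotency, 2 lower of 4 for smooth muscle, 1 lower of 7 for cardiomyocytes, 1 higher of 2 for endothelium and 1 lower of 2 for cartilage. The 7 mesenchyme and fibroblast markers with recovered reads summed to 1269 to 1458 in WT, 1236 to 1285 in KO4 and 964 to 1263 in KO8. Pdgfra, Pdgfrb and Twist1 could not be separated and are not in this sum. The part of these markers in the collagen values was not tested. Of the processing enzymes 5 of 12 tested were lower and 1 higher in KO4, and 2 of 13 lower in KO8. Of all genes tested in NPC samples, 7.74% were called lower and 9.87% higher in KO4, and 1.13% lower in KO8. Pcolce had 1187 and 1373 normalised reads in WT, 561 and 684 in KO4 and 553 and 610.3 in KO8 (−1.04 and −1.13), and Loxl1 803 and 794 in WT, 411 and 495 in KO4 and 462 and 476 in KO8 (−0.82 and −0.77). None of 11 tested genes of the receptor and protease list was called in either clone by limma-voom or limma-trend, with 1 in KO4 and 0 in KO8 at an unadjusted p under 0.05.

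In naive cells most collagens had few reads or none, Col4a2 was higher in both clones and Col20a1 lower, and 11 members could be tested against WT in each clone. In KO4 1 was higher (Col4a2) and 1 lower (Col20a1), where 10.8% and 11.3% of all genes tested were called. In KO8 3 were higher (Col1a1, Col4a2 and Col5a2) and 1 lower (Col20a1), where 14.2% and 6.98% of all genes were called. The median log2 difference was 0.09 in KO4 and 0.23 in KO8, against −0.04 and 0.08 over all genes tested. Between the clones 2 of 10 members differed, against 6.75% of all genes.

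Col4a2 had 49.1, 54.0 and 48.2 normalised reads in naive WT, 121, 134 and 142 in KO4 and 79.8, 96.2 and 85.1 in KO8. The ranges of the 3 groups were apart. The log2 difference from WT was 1.38 ± 0.20 in KO4 (adjusted p = 3.29e-07) and 0.78 ± 0.21 in KO8 (adjusted p = 0.00459), and KO4 exceeded KO8 by 0.60 ± 0.17 (adjusted p = 0.0148). Genes on chromosome 8 had medians of 0.48 and 0.58 in the same comparisons, and how far the level of Col4a2 follows that of its chromosome was not tested. Col4a1, its neighbour, had base means of 276 in the KO4 table and 224 in the KO8 table, which puts KO4 at least 1.23-fold above KO8. On mm9 the annotated genes (Col4a1 at chr8:11198423-11312826, minus strand, and Col4a2 at chr8:11312805-11449287, plus strand) overlap by 22 bases. Whether counting used the strand is not given in the sources used here, so reads in this overlap cannot be assigned.

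The same pair was followed through the other stages. In primed cells Col4a1 had 311 and 324 normalised reads in WT, 447 and 376 in KO4 and 361 and 353 in KO8, so that every knockout library was above the WT range. KO4 passed (0.37 ± 0.11, adjusted p = 0.0140), but not without KO4 library 1 (0.266), WT library 1 (0.102) or WT library 2 (0.0519), and KO8 did not (0.17 ± 0.12, adjusted p = 0.372). Col4a2 had 127 and 117 in WT, 166 and 109.9 in KO4 and 136 and 200.5 in KO8, and passed in neither clone (0.15 ± 0.19, adjusted p = 0.626, and 0.46 ± 0.18, adjusted p = 0.0580). The chromosome 8 medians were 0.40 and 0.44 in primed cells, 0.52 and 0.52 in NPC samples and 0.51 and 0.53 in CM samples.

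Col20a1, a fibril-associated collagen, lies at chr2:180721240-180752245 on mm9, 565 kb from Zfp512b. In naive cells it had 31.4, 55.0 and 44.6 normalised reads in WT, 19.8, 12.2 and 19.5 in KO4 and 9.45, 11.9 and 13.9 in KO8. All knockout libraries were below the WT range, with log2 differences of −1.32 ± 0.34 (adjusted p = 0.00262) and −1.83 ± 0.39 (adjusted p = 0.000262). The gene was also lower in KO4 CM samples (24.6 and 41.0 in WT, 6.31 and 8.21 in KO4, adjusted p = 0.0111) but not in those of KO8 (23.6 and 24.4, adjusted p = 0.519), and in NPC samples neither clone passed (99.1 and 109 in WT, 126 and 148 in KO4, 85.5 and 63.0 in KO8). Col9a3, at 960 kb from Zfp512b on the same chromosome, did not pass in naive cells (−0.54 and −0.20, adjusted p = 0.157 and 0.643).

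Among the naive fibrillar members Col5a2 and Col1a1, both chosen after their values were seen, were higher in KO8. Col5a2 had 20.9, 16.0 and 17.3 normalised reads in WT, 32.3, 34.5 and 23.4 in KO4 and 85.1, 68.4 and 92.0 in KO8. The 3 ranges did not overlap, although KO4 did not pass (0.71 ± 0.34, adjusted p = 0.119). KO8 was above WT by 2.15 ± 0.29 (adjusted p = 5.6e-08), and KO4 was below KO8 by 1.44 ± 0.25 (adjusted p = 2.57e-05). Col1a1 had 23.0, 15.0 and 10.9 in WT, 12.5, 19.3 and 21.5 in KO4 and 31.5, 39.7 and 24.7 in KO8 (0.18, adjusted p = 0.783, and 1.01 ± 0.35, adjusted p = 0.0296). Its KO8 call did not pass without KO8 library 1 (0.0699), KO8 library 2 (0.143), WT library 2 (0.0619) or WT library 3 (0.183). Col3a1 had no read in the 3 WT libraries, 4.17, 9.15 and 1.95 normalised reads in KO4 and 2.10, 3.97 and 1.98 in KO8, too few for a test. For the highest members per kilobase only base means were obtained: 310 and 361 for Col5a3 (KO8 at least 1.16-fold above KO4) and 346 and 476 for Col9a2 (KO8 at least 1.37-fold above KO4). The naive libraries were strongly positive for Pou5f1 (base means 31662 and 31027) and Nanog (28448 and 29184). Some markers of other cell types were too abundant for a test, such as Pecam1 (base means 5232 and 5414) and Nes (2189 and 2325). Among those with recovered reads, which were low, some differed from WT. The 3 cardiomyocyte, 2 neural crest and 1 smooth muscle markers tested were not called in either clone by limma-voom or limma-trend. The 5 recovered mesenchyme and fibroblast markers summed to 83.7 to 111 normalised reads in WT, 159 to 195 in KO4 and 179 to 209 in KO8, with Prrx1, Dcn and Tcf21 at 0, and 2 of 4 tested were higher in KO4 and 1 of 3 in KO8. Thy1 was higher in both clones (1.23 and 1.54), as were the endothelial marker Kdr (0.83 and 0.86) and the cartilage marker Comp (1.81 and 1.29). Of 5 endoderm markers tested in KO4, 2 were higher, Cubn (1.26) and Hnf4a (0.88), and 1 was lower, Thbd (−0.95). In KO8 none of 5 was called by limma-voom or limma-trend, with 1 higher at an unadjusted p under 0.05. The part of these markers in the values of Col1a1, Col4a2 and Col5a2 was not tested. Of the collagen processing enzymes 6 could be tested in naive cells, with 1 higher and 1 lower in KO4 and 1 higher and 2 lower in KO8. Of all genes tested in naive cells, 10.8% were called higher and 11.3% lower in KO4, and 14.2% and 6.98% in KO8.

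In primed cells few collagens were called, and Col26a1 was lower in both clones. Of 22 members tested in each clone, KO4 had 1 higher and 2 lower, against 8.11% and 11.5% of all genes tested, and KO8 had none higher and 1 lower, against 8.18% and 8.15%. By limma-trend KO8 also had 0 higher, and 1 member was higher at an unadjusted p under 0.05. The medians over the members were −0.10 and −0.08, against −0.03 and −0.03 over all genes. None of 21 members differed between the clones by either form of limma (1 at an unadjusted p under 0.05), where 3.03% of all genes did. Primed libraries held Pou5f1 (base means 20420.2 and 19770.3) and Nanog (5127 and 4879). Of 21 processing enzymes tested 2 were higher and 4 lower in KO4, and 3 higher and 3 lower in KO8.

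Col26a1, which encodes a secreted EMI-domain protein with collagenous stretches, had 62.9 and 55.1 normalised reads in primed WT, 20.5 and 29.5 in KO4 and 30.8 and 21.2 in KO8. The knockout ranges coincided and lay below that of WT. The log2 differences were −1.24 ± 0.34 in KO4 (adjusted p = 0.00605, and 0.0996 without KO4 library 1) and −1.20 ± 0.35 in KO8 (adjusted p = 0.00660, 0.180 without KO8 library 2 and 0.0509 without WT library 1). Col9a2, the highest of the other collagens per kilobase, had 165 and 128 in WT, 81.0 and 83.5 in KO4 and 115 and 133 in KO8. It was lower in KO4 (−0.81 ± 0.20, adjusted p = 0.00191, and 0.0659 without WT library 1), while KO8 overlapped WT (−0.22 ± 0.18, adjusted p = 0.466). Col2a1, the highest fibrillar member, had 87.8 and 104 in WT, 112 and 108.9 in KO4 and 137 and 114 in KO8. All knockout libraries were above the WT range, but neither clone passed (0.21 ± 0.20, adjusted p = 0.512, and 0.38 ± 0.20, adjusted p = 0.203).

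**Figure D4:**
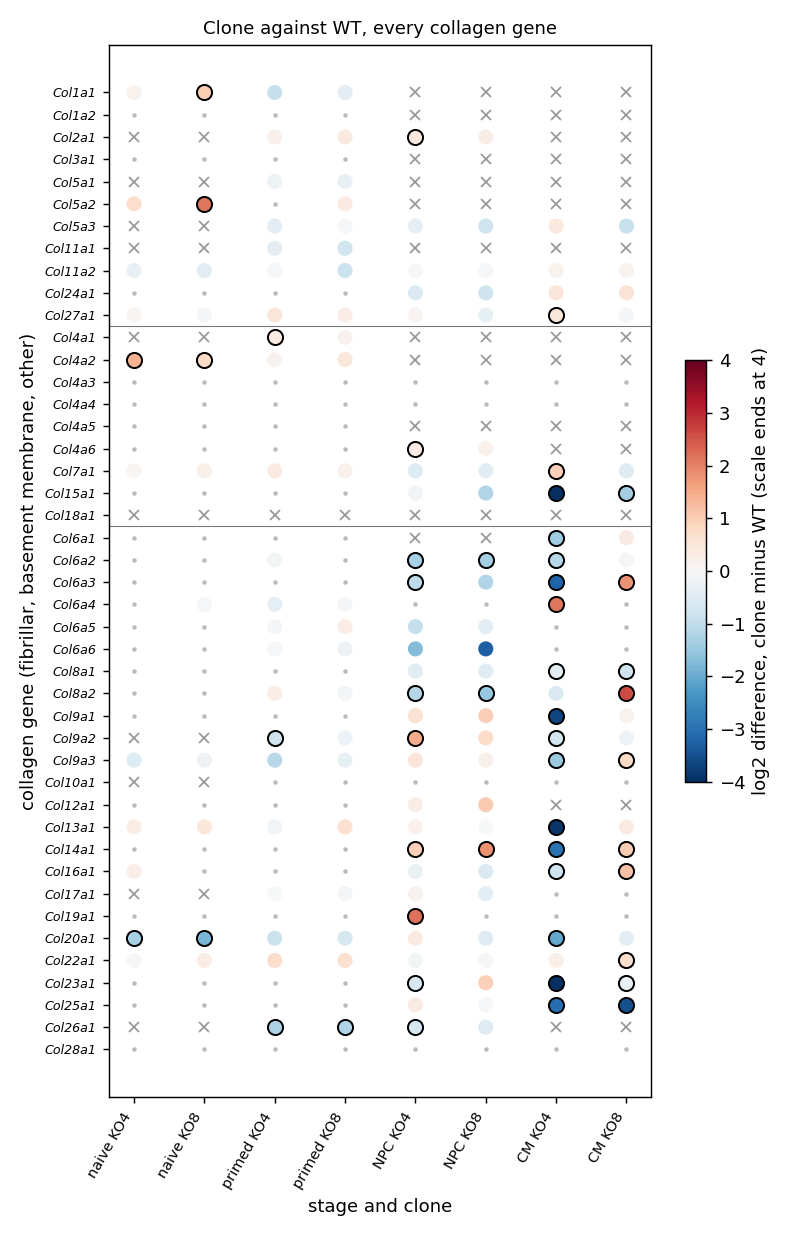
Log2 difference from WT of each collagen gene (rows, by class) in KO4 and KO8 at the 4 stages (columns), as colour, with a black outline where the adjusted p was under 0.05 (limma), a cross where reads were not recovered and a small dot where there were too few reads. The darkest blue is in the KO4 column of CM samples, and few circles of the naive and primed columns are outlined.

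Some members were called in different directions at different stages. Col14a1 was higher in KO4 NPC samples (0.98) and lower in KO4 CM samples (−2.96). Col9a2 was lower in KO4 primed cells (−0.81) and CM samples (−0.77) and higher in KO4 NPC samples (1.48). Col8a2 was lower in KO8 NPC samples (−1.51) and higher in KO8 CM samples (2.62). Each value is a difference from the WT libraries of its own stage, and the difference between stages was not tested, since the stages were normalised separately.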

How the data were processed

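RNA-seq of 27 samples was grouped by genotype and stage as the labels give them. The authors trimmed reads with Trim Galore 0.6.7, used HISAT2 2.2 with mm9 for alignment and featureCounts for counting, and ran DESeq2 1.46.0 for each clone against WT at each stage (8 tables). The only deposited value used was the base mean, a normalised signal averaged over the libraries of a table. The other columns hold the authors' own comparisons (fold change, standard error, statistic and p-values) and were not used. Settings for strand and multiple matches are not given in the sources used here.

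Size factors were read from genes with a lone read. Each gene's reads per library were then solved from the 10 significant digits of its base means in both tables of a stage. A solution was accepted at a share of at least 0.999 of the weight, which is larger the more alike the libraries of a group are. Where several sets of reads fitted, the set with more alike libraries was thus favoured. How far this narrowed the spread behind the p-values was not tested. WT libraries are those present in both tables, and their replicate numbers are unknown. Reads were recovered for 7900 of 19059 genes with reads in naive cells, 14566 of 18573 in primed cells, 14584 of 19561 in NPC and 14360 of 19277 in CM samples, nearly all with base means up to 100 (naive) or 1000. As a check, 500 genes per stage were drawn with base means below 5 (naive) or 20 (other stages). Each table alone gave a unique solution for 487 of them in naive cells, 499 in primed cells, 489 in NPC and 494 in CM samples. For all of these both tables gave the same WT reads. Genes with larger base means were not checked in this way. Even numbers made up 62.2% to 65.8% of values of 1 to 10 reads, so reads are not independent molecules. The design had assumed counts per library. Instead the recovered reads were tested with limma 3.58.1 (voom, R 4.3.3) under the authors' size factors, for genes with a mean of at least 10 reads per library, with Benjamini-Hochberg adjustment over all genes tested. Clones were compared in a fit of 3 groups. Python 3.11.15, numpy 2.4.6, pandas 2.3.3, numba 0.67.0 and matplotlib 3.10.9 were used. The steps were tested on simulated data.

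Full values were given for members that passed in KO4 and in KO8 with 1 sign (at most 6 per stage, by the smaller absolute log2 difference), for Col4a1 and Col4a2, for the highest member of each class per kilobase, and for members called in opposite directions. Other members were added outside this rule with the results known. Among them were Col5a3, Col6a1, Col6a2, Col6a4 and Col7a1 in CM samples. In NPC samples they included Col6a3, Col6a6, Col12a1 and Col15a1. The members and all lists (collagen processing, collagen binding and turnover, and cell type markers) were chosen with earlier results of these data known. Genes were placed on mm9 by symbol (22591 genes), with the chromosome alone from RefSeq for 2535. Promoters came from RefSeq (GRCm38.p6). Alternatives were other size factors, read filters, limma-trend, all groups in 1 fit and leaving out each library.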

Additional observations from a re-analysis of the deposited data

Results flagged for a closer look

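The clones differed from each other in 20 tests of collagen genes, each a log2 difference of KO4 minus KO8 with an adjusted p under 0.05 in a limma fit of the 3 groups of a stage. In naive cells the values were 0.60 for Col4a2 and −1.44 for Col5a2, and in NPC samples 0.72 for Col9a2. In CM samples KO4 was lower than KO8 for Col15a1 (−8.94, a fitted value that depends on the 0 reads of KO4), Col6a3 (−5.04), Col13a1 (−4.26), Col23a1 (−4.12), Col14a1 (−3.98), Col9a1 (−3.80), Col8a2 (−3.24), Col9a3 (−2.28), Col16a1 (−2.02), Col6a1 (−1.75), Col20a1 (−1.66), Col6a2 (−1.19) and Col22a1 (−0.49). It was higher for Col6a4 (3.32), Col7a1 (1.47), Col5a3 (1.36) and Col27a1 (0.54). The markers of mesenchyme, cardiomyocytes and neural progenitors also differed between the clones in CM samples, and their part in these values was not tested.

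For 3 genes the calls of 1 clone had opposite signs at different stages, and the difference between stages was not tested. Col14a1 in KO4 was at 0.98 in NPC and −2.96 in CM samples. Col9a2 in KO4 was at −0.81 in primed cells, 1.48 in NPC and −0.77 in CM samples. Col8a2 in KO8 was at −1.51 in NPC and 2.62 in CM samples. The Col8a2 and Col14a1 values of NPC samples rest partly on single WT libraries, as given with each gene.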

How the results depend on the processing

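Counts of called collagens are given as higher and lower than WT. With no read filter naive KO4 had 2 lower and 2 higher (1 and 1 with the filter), naive KO8 2 lower (1), and primed KO4 0 higher and 1 lower (1 and 2). With a mean of at least 50 reads naive KO4 and KO8 had 0 lower, naive KO8 1 higher (3), primed KO4 1 lower and primed KO8 0 lower (1), as fewer genes were tested. Size factors without chromosome 8 gave 1 higher in primed KO8 (0). With all 3 groups in 1 fit NPC KO4 had 1 higher and 3 lower (5 and 5) and NPC KO8 3 higher and 4 lower (1 and 2), and limma-trend gave NPC KO8 3 and 4. The cause was not tested. Leaving out 1 library gave 1 to 1 higher and 1 to 2 lower in naive KO4, 2 to 3 and 1 to 2 in naive KO8, 0 to 1 and 1 to 2 in primed KO4, 0 to 1 and 0 to 3 in primed KO8, 3 to 3 and 4 to 7 in NPC KO4, 0 to 6 and 0 to 7 in NPC KO8, 2 to 2 and 11 to 14 in CM KO4, and 4 to 8 and 2 to 6 in CM KO8. A setting with 1 library in a group assumes that it varies like the others. No collagen called in a comparison changed sign in it under any setting run for it. Of the values of single genes, 168 stayed called and 43 did not when 1 library was left out. With all groups in 1 fit, Col2a1, Col4a6, Col6a3, Col14a1 and Col23a1 did not pass in NPC KO4. The share of calls over all genes that were higher was 67.1% in naive KO8, against 53.6% with size factors from summed recovered reads, 41.4% in primed KO4 against 54.2% without chromosome 8, and 50.1% in primed KO8 against 60.7%. No scaling moved the median of all genes by over 0.1 on the log2 scale. Scaling by all reads was replaced by scaling to summed recovered reads. No paired analysis was possible because the recovered libraries cannot be tied to the replicate numbers of the labels. Members above the recovered range carry no replicate error, and in naive cells this holds for every gene with a base mean over 100.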

Other observations

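Other matrix genes of CM samples were too abundant for a test and were limited by their base means only. Postn, which encodes the fibroblast protein periostin, had base means of 932 in the KO4 table and 8099 in the KO8 table, so KO8 lay at least 8.43-fold above KO4. The lysyl hydroxylase Plod2 had 3446 and 4703 (at least 1.32-fold) and the lysyl oxidase Loxl2 6944 and 9463 (at least 1.32-fold). P3h2, which hydroxylates proline in collagen, could be tested, with 644 and 853 normalised reads in WT, 338 and 302 in KO4 and 1027 and 1161 in KO8 (log2 differences −1.22 and 0.56).

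The values of 3 more collagens in NPC samples did not pass in KO8, at a stage where the KO8 libraries stand apart. Col12a1, a fibril-associated collagen, had 288 and 283 normalised reads in WT, 371 and 322 in KO4 and 711 and 493 in KO8 (1.04 ± 0.22, adjusted p = 0.0674 in KO8, limma). Col6a6 had 25.0 and 12.3 in WT, 6.26 and 3.86 in KO4 and 0.960 and 1.80 in KO8 (−3.31 ± 0.73, adjusted p = 0.0724 in KO8). Col15a1 had 212 and 166 in WT, 155 and 183 in KO4 and 60.5 and 107 in KO8 (−1.20 ± 0.32, adjusted p = 0.104 in KO8).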
